A study of Danio rerio with 5 samples.

Results

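Distal-less homeobox genes, called dlx in zebrafish, encode transcription factors that bind DNA through a homeodomain and act in the outer edge of growing appendages, in the jaw, in ear and nose placodes, in bone-forming cells and in the forebrain. The gene names dlx1a, dlx2a, dlx2b, dlx3b, dlx4a, dlx4b, dlx5a and dlx6a were looked up in the name column of the deposited gene tables, and all 8 were found, each once, among 31540 genes. All 8 passed the filter on low read counts, which left 19034 genes for testing. The data are RNA sequencing libraries of caudal fin tissue of zebrafish, 3 in a group labelled 24h and 2 in a group labelled Control. Both groups are labelled as regenerated fin tissue, and the text of the series speaks of regenerates 1 and 3 days post-amputation. What the Control fins are is not stated, and the labels give no strain, age, sex or number of fish, so each result is read only as 24h against Control. Nothing states that the libraries came from separate fish, so p-values rest on the spread among libraries, which may be technical.

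In vertebrates most dlx genes lie in convergent pairs, with both genes reading towards each other across a short gap that holds shared enhancers. Each pair joins a gene of the Dlx1/4/6 branch of the family to a gene of the Dlx2/3/5 branch. In fish fins and mouse limbs, Distal-less genes are known from the ectoderm at the growing edge, the apical ridge that keeps the outgrowth going, and in zebrafish fin regeneration dlx5a is used as a marker of the wound epidermis.

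The libraries held 14958600 to 22341452 reads in genes in the 24h group and 15448344 to 18887167 in the Control group. Some markers of fin skin were abundant in both groups and others were not. The basal keratinocyte keratin gene krt5 averaged 23380 CPM in 24h fins, against 30460 CPM in Control fins. The basal keratin gene krtt1c19e averaged 0.634 CPM in 24h fins, against 107.5 CPM in Control fins, and the superficial claudin gene cldne was under 1 CPM on average in both groups. Only 16.4% of the cldne reads were unique, and its model overlaps SH2B2 on the opposite strand. CPM are reads scaled to library size with TMM factors and compare 1 gene between libraries. TPM, as deposited, are scaled by exon length too and are used here to compare genes with each other.

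Of the 8 genes, dlx4a, dlx5a, dlx3b and dlx2b were higher in the 24h libraries and dlx1a was lower, in edgeR's quasi-likelihood test with p-values adjusted over all tested genes by Benjamini-Hochberg and a threshold of 0.05. The other members, dlx2a, dlx4b and dlx6a, did not pass. In bulk tissue, fewer cells of a type and less RNA per cell cannot be told apart. Among all genes tested, 9.43% were called higher and 14.8% lower. For 6 of the 8 genes CPM values were apart between the groups, 5 of them higher and 1 lower in the 24h libraries. Among all genes tested 56.8% were apart, 27.7% higher and 29.1% lower. The median log2 fold change was 0.76 over the 8 genes and -0.0043 over all genes tested.

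How many members were called depended on which libraries were used. All 5 calls held with RLE size factors (24.3% of all tested genes called, in either direction), with no scaling (22.4%) and with upper quartile scaling (24.8%). They also held with at least 10 reads asked of every library (22.2%), on unique reads (25.8%), on exon reads (25.8%), in DESeq2 (26.8%) and in limma, as voom (24.4%), on log2(RPKM + 1) (25.1%), on log2(RPKM + 0.1) (25%) and on log2(TPM + 1) (20.9%). Without a low-count filter 3 were called (18.1%), and on exon-exon reads, a setting chosen after seeing the data, 4 were (23%). Leaving out 1 library gave 2 calls, dlx1a and dlx4a, without 24h replicate 1 (20.7%), without 24h replicate 2 (17.5%) and without Control replicate 1 (9.18%). It gave 3 calls, dlx2b, dlx3b and dlx4a, without Control replicate 2 (11.2%), and 6, with dlx4b as the additional one, without 24h replicate 3 (24.8%).

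**Figure D1:**
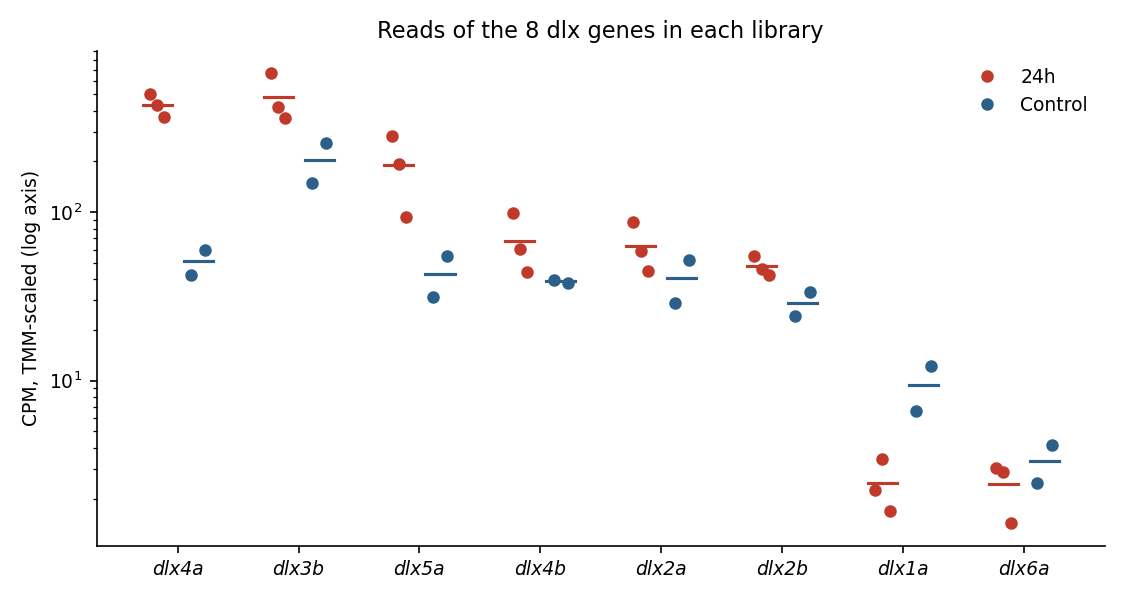
CPM of the 8 dlx genes in each library on a log axis, with 24h libraries in red and Control libraries in blue; points are libraries and lines are group means. The 24h points of dlx4a lie between 367 and 502 CPM, above its Control points at 42.2 and 59.9 CPM, while those of dlx1a lie below its Control points.

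The largest difference was that of dlx4a, a member without a partner, on chromosome 3 from 34540568 to 34551913 of GRCz10 on the forward strand. It had 502, 435 and 367 CPM in 24h fins, against 42.2 and 59.9 CPM in Control fins. All 24h values were far above both Control values. The means were 434.5 ± 67.4 CPM (SD, n = 3) in 24h fins, against 51.0 ± 12.5 CPM (SD, n = 2) in Control fins, an 8.52-fold difference. The log2 fold change of 3.09 ± 0.22 (SE) had an adjusted p of 0.000116 in edgeR, and 0.389% of all tested genes had a larger one. The call held in all 18 alternative settings, where the log2 fold change lay between 2.86 and 3.38.

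The second largest rise was that of dlx5a, the wound epidermis marker, which in mouse also acts in osteoblasts. It lies on chromosome 19 from 41885161 to 41887173 on the reverse strand. It had 284, 193 and 93.1 CPM in 24h fins, against 31.5 and 54.9 CPM in Control fins. The groups did not overlap, but the 24h values spread 3.05-fold, more than those of any other member. The means were 190.0 ± 95.6 CPM (SD, n = 3) in 24h fins, against 43.2 ± 16.6 CPM (SD, n = 2) in Control fins, with a log2 fold change of 2.14 ± 0.52 (SE, edgeR adjusted p = 0.0346). The call was lost when no low-count filter was used (adjusted p = 0.125). It was also lost without 24h replicate 1 (adjusted p = 0.0672), 24h replicate 2 (0.0763), Control replicate 1 (0.214) or Control replicate 2 (0.116), where the log2 fold change ran from 1.72 to 2.61, and it was kept without 24h replicate 3 (0.00293, log2 fold change 2.47).

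Its neighbour dlx6a, on the forward strand of chromosome 19 from 41834464 to 41881986, is known to act with dlx5a in the jaw and at the edge of the mouse limb. It was close to the bottom of the range, with 3.03, 2.88 and 1.43 CPM in 24h fins, against 2.48 and 4.15 CPM in Control fins. The groups overlapped. The log2 fold change of -0.41 ± 0.40 (SE) did not pass (edgeR adjusted p = 0.483), and without Control replicate 2 it was 0.008.

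The gene dlx3b works with dlx4b in the zebrafish ear and nose placodes, and its mouse counterpart acts in the differentiating epidermis. It lies on chromosome 12 from 5673443 to 5676963 on the forward strand and had the highest mean CPM of the family. It had 668, 422 and 362 CPM in 24h fins, against 149 and 257 CPM in Control fins. Each 24h value was above each Control value. The means were 484 ± 162 CPM (SD, n = 3) in 24h fins, against 203 ± 76.7 CPM (SD, n = 2) in Control fins, with a log2 fold change of 1.25 ± 0.34 (SE, edgeR adjusted p = 0.0376). It lost the call without 24h replicate 1 (adjusted p = 0.0657), 24h replicate 2 (0.0571) or Control replicate 1 (0.214) and when no low-count filter was used (0.072).

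The partner dlx4b, on chromosome 12 from 5684659 to 5693798 on the reverse strand, had 98.7, 60.3 and 44.3 CPM in 24h fins, against 39.7 and 38.0 CPM in Control fins. The 24h values were all higher, but the lowest of them was close to the Control values. The log2 fold change of 0.80 ± 0.32 (SE) did not pass (edgeR adjusted p = 0.115). Without 24h replicate 3 it was 1.03 and passed (0.0244).

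The gene dlx2b, also without a partner and known as a marker of zebrafish tooth germs, is on chromosome 1 from 30174005 to 30175776 on the reverse strand. It had 55.0, 45.8 and 42.4 CPM in 24h fins, against 24.3 and 33.5 CPM in Control fins. The groups did not overlap, and the 24h values varied the least of the family, by 1.30-fold. The log2 fold change was 0.73 ± 0.19 (SE, edgeR adjusted p = 0.0293). The call was lost without 24h replicate 1 (adjusted p = 0.0617), 24h replicate 2 (0.0642) or Control replicate 1 (0.212).

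The only member called lower was dlx1a, on chromosome 9 from 3416570 to 3418577 on the forward strand. Its mouse counterpart acts with that of dlx2a in making inhibitory neurons of the forebrain. It had 2.25, 3.43 and 1.69 CPM in the 24h libraries, from 46, 81 and 26 reads, and 6.65 and 12.2 CPM in the Control libraries, from 126 and 185 reads. All 24h values were below both Control values. The log2 fold change was -1.91 ± 0.37 (SE), a 3.77-fold lower level (edgeR adjusted p = 0.0103). It lost the call without Control replicate 2, with an adjusted p of 0.0884 and a log2 fold change of -1.41, and on reads across exon junctions, with an adjusted p of 0.0668 and again -1.41.

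Its neighbour dlx2a, known from neural crest cells of the zebrafish gill arches, lies on chromosome 9 from 3425857 to 3429216 on the reverse strand. It had 86.9, 58.5 and 44.9 CPM in 24h fins, against 28.9 and 52.3 CPM in Control fins. The lowest 24h value was under the higher Control value, so the groups overlapped. The log2 fold change of 0.65 ± 0.35 (SE) did not pass (edgeR adjusted p = 0.219), nor did it pass in any of the 18 alternative settings. It was 0.28 without Control replicate 1, 0.35 without 24h replicate 1 and 1.15 without Control replicate 2.

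**Figure D2:**
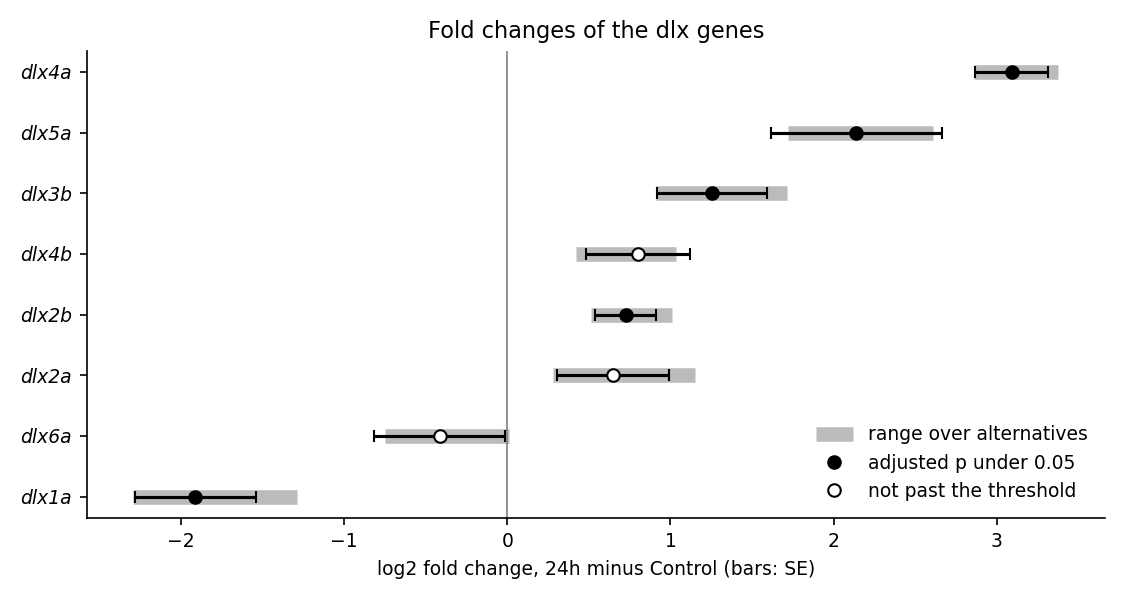
Log2 fold changes of the dlx genes, 24h minus Control, with SE bars; filled points have an adjusted p under 0.05 and grey bars span the 18 alternative settings. The value of dlx4a is 3.09 and that of dlx1a is -1.91, and the grey bar of dlx6a reaches past 0, to 0.008.

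Per length, the order of the genes differed between the groups at the top. In the 24h libraries dlx4a led with 712 ± 58.2 TPM, followed by dlx3b with 634 ± 149 TPM (SD, n = 3). The ranges of these genes overlapped, and dlx4a was above dlx3b in 2 of the 3 libraries. In the Control libraries dlx3b led with 279 ± 104 TPM and dlx4a followed with 87.0 ± 20.3 TPM (SD, n = 2), and their ranges did not overlap. The third place was held by dlx5a, with 305 ± 132 TPM in 24h fins, against 73.1 ± 27.9 TPM in Control fins. In the 24h libraries dlx5a was above dlx4b in every library, at 162 TPM or more against at most 141 TPM. In the Control libraries the range of dlx5a overlapped that of dlx4b, at 64.4 ± 2.31 TPM. The place of dlx5a rests in part on reads that are not unique. Only 43.3% to 47.3% of its reads in a library were unique, against all reads of dlx4b. Unique reads in 24h replicate 3 numbered 641 for dlx5a and 682 for dlx4b, with exon lengths of 1302 and 1291 bases. These counts are not alike, because the pdk4 gene model overlaps dlx5a and no gene model overlaps dlx4b. Unique reads across exon junctions in that library numbered 516 for dlx5a and 171 for dlx4b. The genes dlx4b, dlx2a and dlx2b came next in this order in both groups, between 63.9 and 105 TPM on average in 24h fins, against between 38.4 and 64.4 TPM in Control fins, with neighbours in the order overlapping. At the bottom, dlx1a had 3.77 ± 1.16 TPM in 24h fins, against 13.9 ± 6.64 TPM in Control fins, and dlx6a had 2.74 ± 0.886 TPM in 24h fins, against 3.59 ± 1.33 TPM in Control fins. The ranges of dlx1a and dlx6a overlapped in 24h fins. In Control fins they were apart.

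Summed over the family, there were 2291, 1897 and 1519 TPM in 24h fins, against 478 and 743 TPM in Control fins. The composition of this sum differed as well. The share of dlx4a was 33.0%, 38.7% and 42.5% in 24h fins, against 15.2% and 13.6% in Control fins. Of the other members, dlx5a overlapped between the groups, with 10.7% to 18.4% in 24h fins, against 11.2% to 12.5% in Control fins. The remaining 6 had a smaller share in each 24h library than in each Control library. That of dlx3b was 33.3% ± 2.08 in 24h fins (SD, n = 3), against 45.2% ± 3.19 in Control fins (SD, n = 2), although its own level was higher in the 24h libraries. These shares add up to a fixed total, so a rise of dlx4a by itself lowers all others. The share of dlx2a was 3.97% on average in 24h fins, against 8.22% in Control fins. For dlx4b it was 5.43%, against 11.1%, and for dlx2b 3.42%, against 6.39%. That of dlx1a, with 26 to 81 reads per 24h library, was 0.2%, against 2.22%. That of dlx6a, with 22 to 68 reads per 24h library, was 0.143%, against 0.582%. What part of each follows from dlx4a was not tested.

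**Figure D3:**
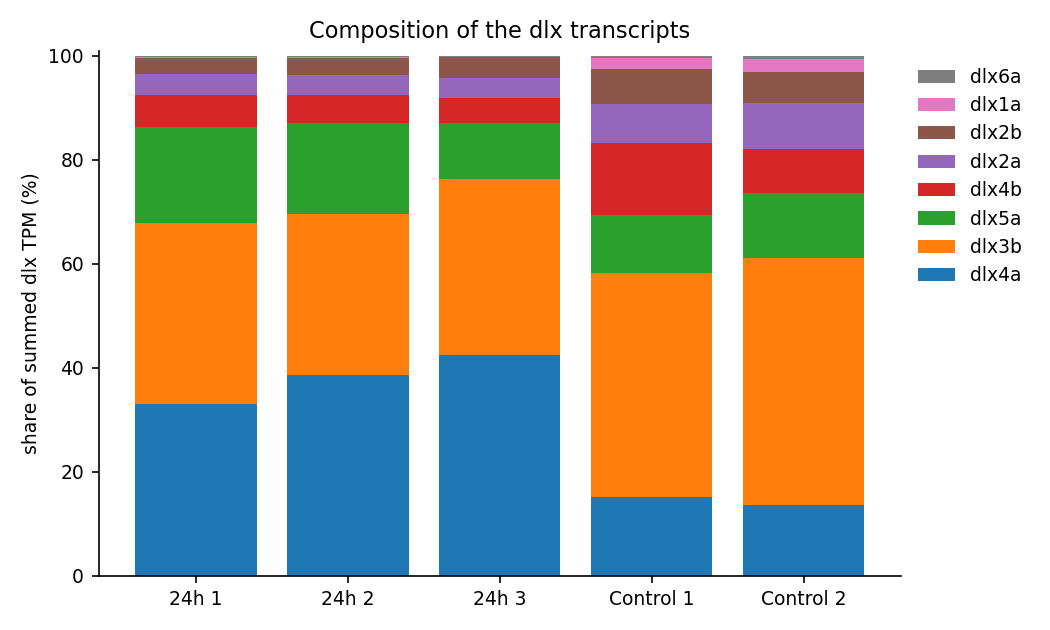
Share of each dlx gene in the summed TPM of the family, as stacked bars, 1 bar per library. The dlx4a segment at the base takes 33.0% to 42.5% in 24h fins, against 13.6% to 15.2% in Control fins.

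Split by branch of the family after the values were known, 3 of the 4 genes of the Dlx2/3/5 branch were called higher. Among all genes tested 9.43% were. These members were dlx2b, dlx3b and dlx5a, and each lost its call without 24h replicate 1 or without 24h replicate 2. The log2 fold change of the other one, dlx2a, was 0.65 and did not pass. The Dlx1/4/6 branch held the largest rise, dlx4a, the fall of dlx1a, and dlx4b and dlx6a, which did not pass. It summed to 903, 842 and 724 TPM in 24h fins, against 151 and 187 TPM in Control fins. The Dlx2/3/5 branch summed to 1390, 1050 and 794 TPM in 24h fins, against 327 and 556 TPM in Control fins.

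Neighbours in a pair lie close together, and the ratio of their RNA levels was higher in each 24h library than in each Control library in all 3 pairs. How often ratios of other gene pairs were apart was not counted. Among single genes tested, CPM values of 56.8% were apart between the groups. Between dlx3b and dlx4b lie 7695 bases, between dlx1a and dlx2a 7279 bases, and between dlx5a and dlx6a 3174 bases. The ratio of dlx5a to dlx6a in TPM was 135, 98.0 and 93.4 in 24h fins, against 20.1 and 20.5 in Control fins. The mean log2 ratio was higher in the 24h libraries by 2.40. Many reads of both genes were not unique, and on unique gene reads the difference was 2.24. The ratio of dlx2a to dlx1a was 26.8, 14.7 and 21.4 in 24h fins, against 3.91 and 3.53 in Control fins, a difference of 2.45 in the mean log2 ratio. For these pairs the gap between the groups was larger than the spread within them, with SDs of the log2 ratio of 0.018 to 0.44. The less abundant gene of each had few reads, 26 to 185 per library for dlx1a and 22 to 68 for dlx6a. The SD of 0.018 is that of dlx5a to dlx6a in 2 Control libraries, too few to measure the spread well. The ratio of dlx3b to dlx4b was 5.69, 5.83 and 6.97 in 24h fins, against 3.11 and 5.62 in Control fins. Here the difference of 0.555 was less than the SD of 0.60 between the Control libraries. Leaving out Control replicate 1 gave 0.128, and leaving out Control replicate 2 gave 0.982. In a two-sided exact permutation test of each of these 3 ratios p was 0.1, also after adjustment over the ratios, which is the smallest value that 3 libraries against 2 allow.

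**Figure D4:**
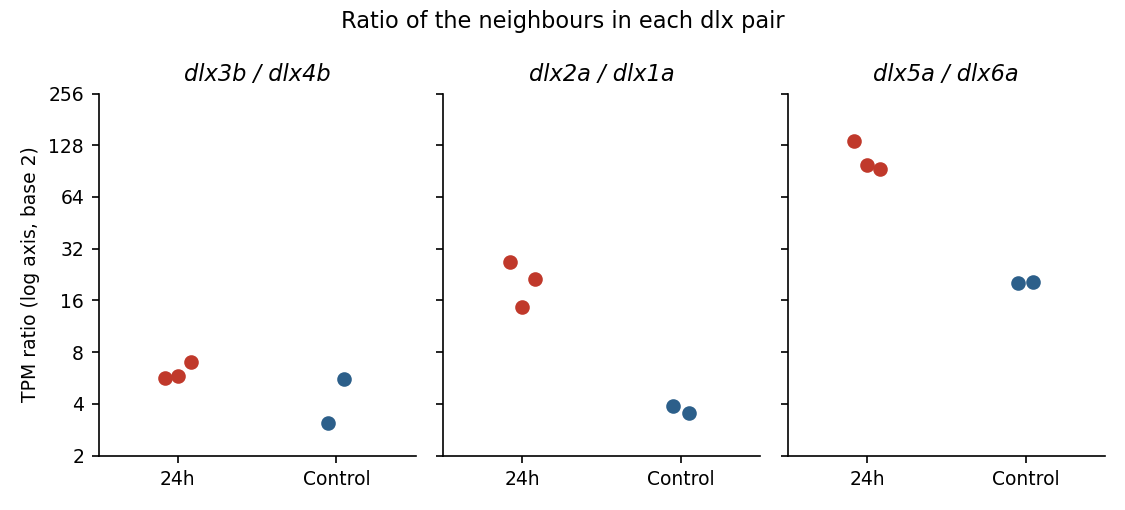
TPM ratio of the more abundant to the less abundant gene of each dlx pair, on a log axis of base 2 shared by the panels, with 24h libraries in red and Control libraries in blue. The dlx5a to dlx6a ratio is 93.4 or more in 24h fins, against at most 20.5 in Control fins, while for dlx3b to dlx4b the lowest 24h point, 5.69, lies just above Control replicate 2, at 5.62.

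Within each group the libraries also differed in a common way. In all 8 genes 24h replicate 3 had the lowest CPM of the 24h libraries, as it did in 35.7% of all tested genes, and in 7 of the 8 (all but dlx1a) 24h replicate 1 had the highest, as in 34.9% of all tested genes. Control replicate 2 was above Control replicate 1 in 7 of the 8 genes (all but dlx4b), against 49.6% of all tested genes. The summed TPM of the 8 basal epidermis markers was 23370, 21000 and 25170 in 24h fins, against 26920 and 32460 in Control fins. It was highest in the 24h library where the dlx genes were lowest, but krt5 held 87.2% or more of the sum in every library, and the other 7 markers summed to 2981, 2297 and 2616 TPM in 24h fins, against 1824 and 2531 TPM in Control fins. The summed TPM of the 8 superficial epidermis markers was 7825, 6170 and 5979 in 24h fins, against 4977 and 4434 in Control fins. Without krt4, its leading gene, the order was the other way round, with 1118, 771 and 642 TPM in 24h fins, against 1929 and 1519 TPM in Control fins. No basal or superficial marker was at 0 reads in all libraries, and the part of these markers in the dlx results was not tested.

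For most of the family every read was unique in the deposited counts, which was so for 6 of the 8 genes. Of the reads of dlx5a, 43.3% to 44.7% were unique in 24h fins, against 44.4% to 47.3% in Control fins. For dlx6a it was 50.0% to 62.9% in 24h fins, against 44.7% to 50.8% in Control fins. The pdk4 gene model, of a pyruvate dehydrogenase kinase, spans the whole dlx5a gene on the same strand and dlx6a on the opposite strand, and whether counting used strand is not stated. Of 1230 reads of pdk4 in 24h fins, against 649 in Control fins, 54.6% were unique over all libraries, and pdk4 itself did not pass (log2 fold change 0.09, edgeR adjusted p = 0.741). The reads of dlx5a that crossed an exon junction were unique in 99.0% or more in each library. They numbered 1907, 1538 and 519 in 24h fins, against 201 and 313 in Control fins. Tested on such reads alone, dlx5a had a log2 fold change of 2.09 ± 0.55 (SE, edgeR adjusted p = 0.0462), and on unique gene reads 2.08 (adjusted p = 0.0402). Intron reads made up 1.72% of the dlx5a reads and 2.68% of the dlx3b reads, but 9.72% of the dlx4a and 18.5% of the dlx1a reads. For dlx4a they were 8.29%, 11.6% and 9.18% in 24h fins, against 7.88% and 9.58% in Control fins, so the share overlapped between the groups.

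The nearest genes outside the family gave no call in edgeR's main test where they could be tested. Beside dlx2b lie the methionine aminopeptidase gene metap1d, 3770 bases away, with a log2 fold change of 0.58 (edgeR adjusted p = 0.086), and on the other side the integrin gene itga6b (0.28, adjusted p = 0.643). Beside dlx5a and dlx6a lie shfm1, a proteasome component gene, with a log2 fold change of 0.36 (edgeR adjusted p = 0.113, and 0.0361 without 24h replicate 3), and the argonaute gene ago2 (-0.23, adjusted p = 0.735). The acetyltransferase gene hat1, on 1 side of dlx1a and dlx2a, had a log2 fold change of -0.04 (edgeR adjusted p = 0.874). Beside dlx3b and dlx4b, si:ch211-281o13.1 had 29 reads in either group and a log2 fold change of -0.78 (edgeR adjusted p = 0.212). Overlapping dlx6a on the opposite strand, si:ch73-351f10.4 had 2 reads in 24h fins, against 16 in Control fins. It was tested only when no low-count filter was used, and was then called lower (adjusted p = 0.0201). The phosphatase gene dusp3b, 1674 bases from dlx4a, had 19 reads in 24h fins, against 2 in Control fins, too few to be tested. It overlaps thraa on the opposite strand.

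The profiles over the 5 libraries nearest to that of dlx3b, the member with the highest mean CPM, were those of piwil1, si:dkey-126g1.7, fabp1b.2, perp and her9. Nearness was the root mean square difference of centred log2 CPM, 0.12 to 0.16 for these genes, taken over genes whose mean log2 CPM was at least 3. Reads listed under 2 of these names may belong to other genes. Of the piwil1 reads 99.9% were in introns and 1.57% were unique, its TPM was at most 0.233 in any library, and its model overlaps fzd10 on the same strand, so its profile is not read as that of piwil1 RNA. Of the perp reads 30.1% were unique, and its model overlaps ppp3r1a. The reads of her9, of a Hairy-type repressor, were all unique, with 126 CPM in 24h fins, against 44.4 CPM in Control fins. Nearest to dlx4a, the member with the largest change, were igfbp6b, ak5l, fstl1a, rps6ka3b and chl1b, at 0.16 to 0.24, each with 99.7% or more of its reads unique. Of these fstl1a, of the follistatin-like family, had 201 CPM in 24h fins, against 25.7 CPM in Control fins, and igfbp6b, of a protein that binds insulin-like growth factors, had 134 CPM in 24h fins, against 18.9 CPM in Control fins. All these genes were picked for their profiles, so their differences between the groups follow from the selection. The nearest family member to dlx3b was dlx2a at 0.30, and the nearest to dlx4a was dlx5a at 0.64.

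Genes known to act before or beside Distal-less genes at the growing edge of appendages were mostly higher in the 24h libraries. Of 14 tested, 9 were higher and 2 lower, and the median log2 fold change was 1.21, against 9.43% and 14.8% of all genes tested and a median of -0.0043. The Sp zinc finger genes of the apical ridge were all called: sp9 had 214 ± 65.1 CPM in 24h fins (SD, n = 3), against 40.8 ± 11.7 CPM in Control fins (SD, n = 2), a log2 fold change of 2.39, and sp8b and sp8a had 2.16 and 1.59. The gene tp63, whose protein keeps epidermal stem cells and in mouse limb ectoderm acts before Dlx5 and Dlx6, had 569 ± 156.5 CPM in 24h fins (SD, n = 3), against 253 ± 32.2 CPM in Control fins (SD, n = 2), a log2 fold change of 1.17. Bmp ligand genes went both ways, bmp7a (3.26) and bmp2a (1.25) higher and bmp4 (-1.64) lower. The Wnt effector gene lef1 (0.46) was higher and the receptor gene fgfr2 (-1.24) lower. The edgeR adjusted p of these genes ran from 0.000494 to 0.0332. Without Control replicate 1 the calls of tp63 (adjusted p = 0.118), fgfr2 (0.0583) and lef1 (0.159) were lost, and without Control replicate 2 those of tp63 (0.0545), fgfr2 (0.0518) and lef1 (0.2). That of lef1 was also lost without 24h replicate 1 (0.05) or 24h replicate 2 (0.0975).

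Msx homeodomain proteins can bind Dlx proteins and oppose their action, as known from mouse. Of 6 Msx and partner genes tested, msx2b (2.77) and msx2a (1.87) were higher and msx1a (-1.96) lower, and the median log2 fold change was 0.16. Among all genes tested 9.43% were higher and 14.8% lower. The genes msx1b (-0.23, edgeR adjusted p = 0.407) and msx3 (-0.07, edgeR adjusted p = 0.887) did not pass. They had 94.2 and 100.7 CPM in 24h fins, against 110.7 and 106.0 CPM in Control fins. The level of msx2b was 377 ± 182 CPM in 24h fins (SD, n = 3), against 55.4 ± 14.2 CPM in Control fins (SD, n = 2), with an edgeR adjusted p of 0.00713, and 0.071 without Control replicate 1. The gene msx1a was rare, at 34 reads in 24h fins, against 75 in Control fins, and its call was lost when Control replicate 1 (adjusted p = 0.137) or Control replicate 2 (0.0702) was left out.

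In the jaw, endothelin 1 signals through its receptors to turn on dlx genes of the lower jaw, among them dlx3b, dlx5a and dlx6a. Of 11 genes of that network tested, 4 were lower and 0 higher in edgeR's test, against 14.8% and 9.43% of all genes tested. The median log2 fold change of the network was -0.39. At an unadjusted p under 0.05, and in DESeq2 at an adjusted one, 2 were higher, and 0 were in limma-voom. Among the lower ones were the receptor genes ednrab (-5.94) and ednraa (-1.94). With 11 reads in 24h fins, against 399 in Control fins, the size of the ednrab change is loosely set. It ran from -8.07 to -2.685 over the alternatives. The jaw gene hand2, a target there, had 5 reads in 24h fins, against 4 in Control fins. Of the placode network, in which dlx3b and dlx4b act, 6 of 13 genes had enough reads to be tested. Of these sox9b (1.17, edgeR adjusted p = 0.0103, and 0.0703 without Control replicate 2) was higher, and tfap2a (0.66, edgeR adjusted p = 0.0654) and tfap2c (0.15, edgeR adjusted p = 0.39) did not pass. In 7 of the 18 alternative settings tfap2a was called, among them DESeq2 (adjusted p = 0.0317) and edgeR without 24h replicate 3 (0.0389). The median was 0.19. Of the sox9b reads 84.5% were unique, and on exon-exon reads its adjusted p was 0.138.

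Another list held 9 osteoblast genes that mouse Dlx5 is known to act on or that follow from it. In edgeR's test 6 were lower and 0 higher, against 14.8% and 9.43% of all genes tested. The median log2 fold change of the list was -1.87. DESeq2, limma-voom and an unadjusted p under 0.05 in edgeR also gave 0 higher. They included the transcription factor gene sp7 (-2.40), the collagen genes col1a1a (-2.50), of which 58.5% of the reads were unique, and col1a1b (-2.04), and the matrix gene sparc (-1.56), with edgeR adjusted p of at most 0.000486. The runx2 genes did not pass, at 0.43 for runx2a and -0.36 for runx2b. Of the runx2a reads 85.5% were in introns, and its model overlaps supt3h on the opposite strand. Its log2 fold change ran from -0.45 to 0.62 over the 18 alternative settings. Of 4 tested genes from the Dlx network of the mouse forebrain, the neuropilin genes nrp2a (-1.30) and nrp2b (-1.16) were lower, with a median of -0.86 over the list. The gene gad2, of the enzyme that makes the transmitter of inhibitory neurons, had 27 reads in 24h fins, against 24 in Control fins. It did not pass (log2 fold change -0.55, edgeR adjusted p = 0.585).

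**Figure D5:**
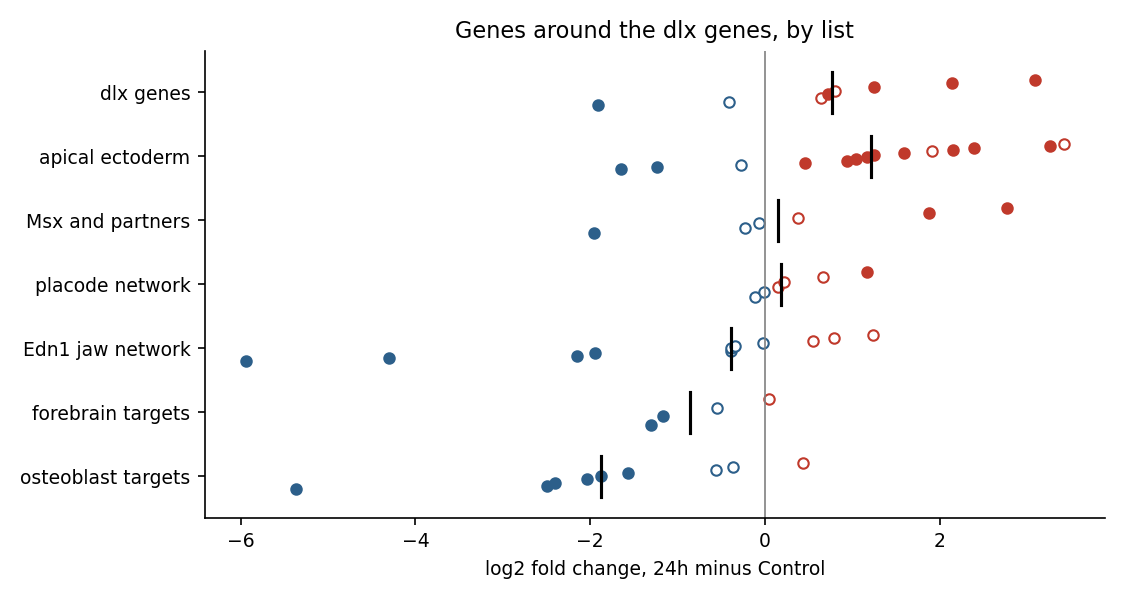
Log2 fold changes, 24h minus Control, of the dlx genes and of 6 lists of genes known to act with them; each point is a tested gene, filled where the adjusted p is under 0.05, red above and blue below 0, and black lines are list medians. The apical ectoderm list has its median at 1.21 and the osteoblast list at -1.87.

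The cell type markers did not move as 1 group. Among all genes tested 9.43% were called higher and 14.8% lower, so a single call in a short list is not read as a shift. Of 8 basal epidermis markers 2 were higher, tp63 and cldni, and 2 lower, with krtt1c19e at a log2 fold change of -7.35 and col17a1a at -4.56. The related gene col17a1b was more abundant than col17a1a and did not pass (-0.36, edgeR adjusted p = 0.241). It had 1377 CPM in 24h fins, against 1774 CPM in Control fins. Of 8 superficial epidermis markers krt4 (1.02) was higher and 2 were lower, cyt1 (-2.02) and krt17 (-1.91, edgeR adjusted p = 0.0384). Both gene models overlap other keratin genes, and 45.0% of the cyt1 reads and 64.8% of the krt17 reads were unique. The more abundant one, krt17, had 230 CPM in 24h fins, against 866 CPM in Control fins. It was called in 13 of the 18 alternative settings. Of 9 osteoblast markers, 5 of which are also in the list above, 6 were lower, among them ifitm5 (-7.11) and phospho1 (-4.19). Their summed TPM was 165 to 255 in 24h fins, against 10080 to 10300 in Control fins. The collagen gene col10a1a held 88.7% to 89.0% of the Control sum, and the other 8 summed to 140.0 to 236 TPM in 24h fins, against 1110.0 to 1167 TPM in Control fins. Of 10 fibroblast markers 6 were lower, among them lum (-4.54), and tph1b (4.42) was higher, and their sum was 1769 to 2694 TPM in 24h fins, against 5988 to 6246 TPM in Control fins. Without col1a2, the leading gene, it was 1275 to 1805 TPM in 24h fins, against 2842 to 3051 TPM in Control fins. Of 5 tested neuron markers tubb5 (0.77) was higher and syt1a (-1.34), with 71.0% of its reads in introns, lower. All 7 in the tables summed to 280 to 310 TPM in 24h fins, against 175 to 192 TPM in Control fins, nearly all of it tubb5. The rest summed to 3.26 to 5.26 TPM in 24h fins, against 5.72 to 6.33 TPM in Control fins, so the order of the groups turned round. Of 5 tested markers of lateral line hair cells s100t (1.91) was higher, and the hair cell regulator gene atoh1a had 6 reads in 24h fins, against 1 in Control fins, none of them unique. All 7 in the tables summed to 24.2 to 25.8 TPM in 24h fins, against 14.5 to 15.9 TPM in Control fins. Without s100t the sums overlapped, at 8.70 to 11.1 TPM in 24h fins, against 10.2 to 11.8 TPM in Control fins. Of 5 tested immune markers 3 were lower, among them ptprc (-0.98) and lcp1 (-0.81). All 6 in the tables summed to 117 to 170.3 TPM in 24h fins, against 229 to 269 TPM in Control fins. Without Control replicate 1 the calls of krt4 (adjusted p = 0.12), tubb5 (0.0751), ptprc (0.14) and lcp1 (0.158) were lost, as were those of krt4 (0.119) and ptprc (0.0561) without Control replicate 2 and that of lcp1 (0.0505) without 24h replicate 1. The part that each of these cell types had in the dlx values was not tested.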

How the data were processed

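Per the labels' protocols, RNA of homogenised fin tissue was taken up by phenol extraction, and sequencing libraries came from a kit for stranded mRNA. GRCz10 is the genome build in the submitters' processing notes, and no source used here names the aligner or the program that counted reads. Per the file headers, the 5 deposited tables give whole-number counts per gene (all reads, unique reads, and reads in exons, in introns and across exon junctions) beside the authors' RPKM and TPM. Genes were matched by name and coordinates are those of the deposited tables. Total gene reads were tested with edgeR 4.0.16 in R 4.3.3 (quasi-likelihood F test, TMM, filterByExpr, robust dispersion, Benjamini-Hochberg at 0.05). The SE of a log2 fold change was taken as its size over the square root of F. The common coefficient of variation that edgeR fitted between libraries of a group, beyond counting noise, was 20.2%. Whether that variation is biological or technical is not known. The code was tested on simulated counts.

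The members and gene lists were chosen with earlier results of these data known, so list counts are descriptions. Named list genes are the 3 smallest p of each pathway list with called genes of mean log2 CPM of 5 or more, and the 2 smallest p of each marker list. Others, such as runx2a, hand2, atoh1a, cldni, cldne, col10a1a, col1a2, col17a1b, krt5, krt17, msx1b and msx3, were chosen after their values were seen. Alternatives were other scalings, filters and read types, DESeq2 1.42.0, limma 3.58.1 (voom, or on log2 of RPKM or TPM plus a constant), and leaving out each library. No sequence was used here, and 1 gene that the rule names is not reported here.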

Additional observations from a re-analysis of the deposited data

How the results depend on the processing

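No paired analysis was possible because replicate numbers are not part of the labels. Against 4 members called higher, 1 to 5 were called when 1 library was left out (1 without 24h replicate 1, 24h replicate 2 or Control replicate 1), and 2 when no low-count filter was used, where dlx3b (log2 fold change 1.26) and dlx5a (2.15) were lost. Against 1 member called lower, 0 or 1 was called when 1 library was left out, and 0 on exon-exon reads, where dlx1a was at -1.41. Of all genes tested, 24.3% were called in either direction in the main test, 18.1% with no low-count filter and 23% on exon-exon reads. The share was 20.7% without 24h replicate 1, 17.5% without 24h replicate 2 and 24.8% without 24h replicate 3. The cause of the changed calls was not tested. With 1 library left out, log2 fold changes ran from -2.29 to -1.41 for dlx1a, 0.28 to 1.15 for dlx2a, 0.51 to 0.99 for dlx2b, 0.91 to 1.71 for dlx3b, 0.42 to 1.03 for dlx4b, 1.72 to 2.61 for dlx5a and -0.75 to 0.008 for dlx6a, the only member that changed sign in any alternative. Over all genes, 418 to 1740 were called higher and 1372 to 2953 lower when 1 library was left out, against 1794 and 2824. Of the members' fold changes under the alternatives, 128 kept direction and side of the threshold, 14 lost the call, 1 gained it and 1 changed sign. Among the list genes named for their p or level, the sign of gad2 (-0.998 to 0.24 with 1 library left out) and of tfap2c (-0.11 on exon-exon reads) changed. Signs also changed outside that selection, as for runx2a (-0.45 to 0.62 over the alternatives). With 1 Control library left out, the lone Control is assumed to vary like the 24h libraries. Depth limits dlx1a and dlx6a, with as few as 26 and 22 reads in a library.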
